A study of Drosophila melanogaster with 8 samples.

Results

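The interaction of cbc and PCF11 asks, gene by gene, whether overexpression of both proteins together changed transcript levels by the product of the changes seen with either protein alone. It was computed from reads summed over all listed poly(A) sites of a gene, on the log2 scale, as cbc plus PCF11 minus cbc minus PCF11 plus control. A value of 0 means that the fold changes multiplied, and a negative value means fewer reads with both proteins than that product. Of 529 gene entries in the joined tables, 523 had a mean of 10 or more summed reads per library and were tested, and the other 6 were left out. An entry is a gene and a named transcript of it, and the 529 entries carry 522 gene symbols.

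The 4 genotypes had 2 libraries each, made from whole testes of Drosophila melanogaster males, about 150 pairs of testes per library. All males carried the bam86 and bam1 mutant alleles and the nosGal4 and bamGal4 drivers (nosGal4/Y;+/+;bam86,bamGal4/bam1 in the control). The cbc plus PCF11 males added UAS>cbc-V5+PCF11-RF-HA, the cbc males UAS>cbc-V5 and the PCF11 males UAS>PCF11-RF-HA, each over a plain second chromosome, and the control males had no UAS transgene. Crosses stood for 3 days at 25 °C and the progeny grew at 29 °C. The control lacks any UAS responder, so an effect shared by all UAS genotypes enters the interaction with a negative sign and cannot be told apart from it. The cbc plus PCF11 males also have 2 responders on the same drivers, and how much protein each responder made is not measured in these tables.

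Cbc is the fly Clp1 protein and PCF11 the fly Pcf11 protein, which together make up the core of cleavage factor II. This factor takes part in the cleavage of pre-mRNA ahead of poly(A) tail addition, and Pcf11 also binds the tail domain of RNA polymerase II and helps end transcription. In the fly testis, bam is needed for spermatogonia to stop dividing and become spermatocytes, so bam mutant testes fill with spermatogonia. The nos driver acts in germline stem cells and early spermatogonia, and the bam driver in later spermatogonia. Many genes have several poly(A) sites in the 3' UTR, and the site used more upstream is called proximal.

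Listed windows held 296166 and 287828 reads in the cbc plus PCF11 libraries, 287046 and 244017 reads in those of cbc, 251163 and 238162 reads in those of PCF11, and 258161 and 333675 reads in the controls. These totals cover the listed windows only, and the median entry had 264 to 342 reads per library. Values below are normalised reads, scaled with TMM factors to a library of 274332 listed reads, so every change is relative to the listed genes. The tables hold no entry for cbc, Pcf11, bam, vas or nos, so neither the overexpression nor the germline identity of the samples could be checked on these genes. None of 15 germline markers and none of 15 sheath, muscle and fat markers was measured, and 1 of 12 spermatid markers was (orb2). Of 15 cyst and hub markers 2 were measured (chinmo and zfh1), with summed normalised reads of 1344 and 1427 with cbc plus PCF11, 1568 and 1873 with cbc alone, 1358 and 1458 with PCF11 alone, and 1766 and 2300 in the control. Their part in the results was not tested. In whole testes, fewer cells of a type and less RNA per cell cannot be told apart. The labels call the libraries duplicates without saying whether they came from separate crosses, so p-values here reflect the variation among these 8 libraries, which may be technical.

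Differences between duplicates touch the results below. Among the 34 entries with an interaction below 0 that passed, replicate 1 of cbc plus PCF11 was lower than replicate 2 in 30, with a median ratio of 0.680. The same ratio was 1.02 over all 523 entries, and in those 34 entries it was 1.002 for cbc, 0.989 for PCF11 and 1.20 for the control. Replicate 1 of the control was lower than its replicate 2 in 6 of the 34. Without replicates 1 and 2 of the control the median interaction of the 34 entries was -1.93 and -1.66. Without replicate 1 of cbc plus PCF11 it was -1.46, against -2.24 without replicate 2 and -1.79 with both. The number of calls was 30 without replicate 1, all of them among the 54 calls from all libraries, and 61 without replicate 2.

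The interaction passed an adjusted p of 0.05 (edgeR quasi-likelihood test over all entries) in 54 of 523 entries, or 10.3%. It was above 0 in 20 entries (3.82%) and below 0 in 34 (6.5%), and 128 entries (24.5%) had an unadjusted p under 0.05. The count above 0 was the less stable of the pair. It was 12 with no minimum of reads, 13 with library totals and no factor, 28 by DESeq2 and 3 without either PCF11 library, and the count below 0 was 35, 35 and 38 in the first 3 of these and 19 and 20 without replicates 1 and 2 of PCF11. The median interaction over all 523 entries was 0.03. In the same fit, cbc plus PCF11 against control passed in 172 entries (32.9%), 94 of them higher (18%) and 78 lower (14.9%). Cbc against control passed in 121 (23.1%), 66 higher (12.6%) and 55 lower (10.5%), and PCF11 against control in 112 (21.4%), 60 higher (11.5%) and 52 lower (9.94%). These 3 comparisons share the control libraries with each other and with the interaction, so their values are set side by side as a description.

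The 34 entries below 0 had a median log2 change against the control of 1.41 with cbc plus PCF11, 1.88 with cbc and 1.51 with PCF11. Their changes ranged 0.06 to 3.32 with cbc plus PCF11, 0.57 to 3.28 with cbc and 0.52 to 2.60 with PCF11. The median entry had 362 normalised reads with cbc plus PCF11, 493 with cbc, 417 with PCF11 and 129 in the control. The mean with both proteins was 0.128 to 0.583 of the value that the product of the fold changes gives, with a median of 0.290. In 32 of the 34 all 6 overexpression libraries lay above both controls, which was so for 19.3% of all entries. The same libraries enter the interaction that picked the 34, so this contrast was partly set by that choice. On a linear scale the same sum of means was also below 0 in all 34. In 30 of the 34 the mean with both proteins lay between the cbc and PCF11 means or beyond them by less than 1.25-fold. The same count was not made over all entries, so whether this is particular to the 34 was not tested. A negative sign was not particular to the called entries. In 49 entries both cbc and PCF11 passed as higher than the control. All 49 had an interaction below 0, with a median of -1.36, and it passed in 32. The control, cbc and PCF11 libraries that picked the 49 also enter the interaction, so its sign was partly set by that choice.

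**Figure D1:**
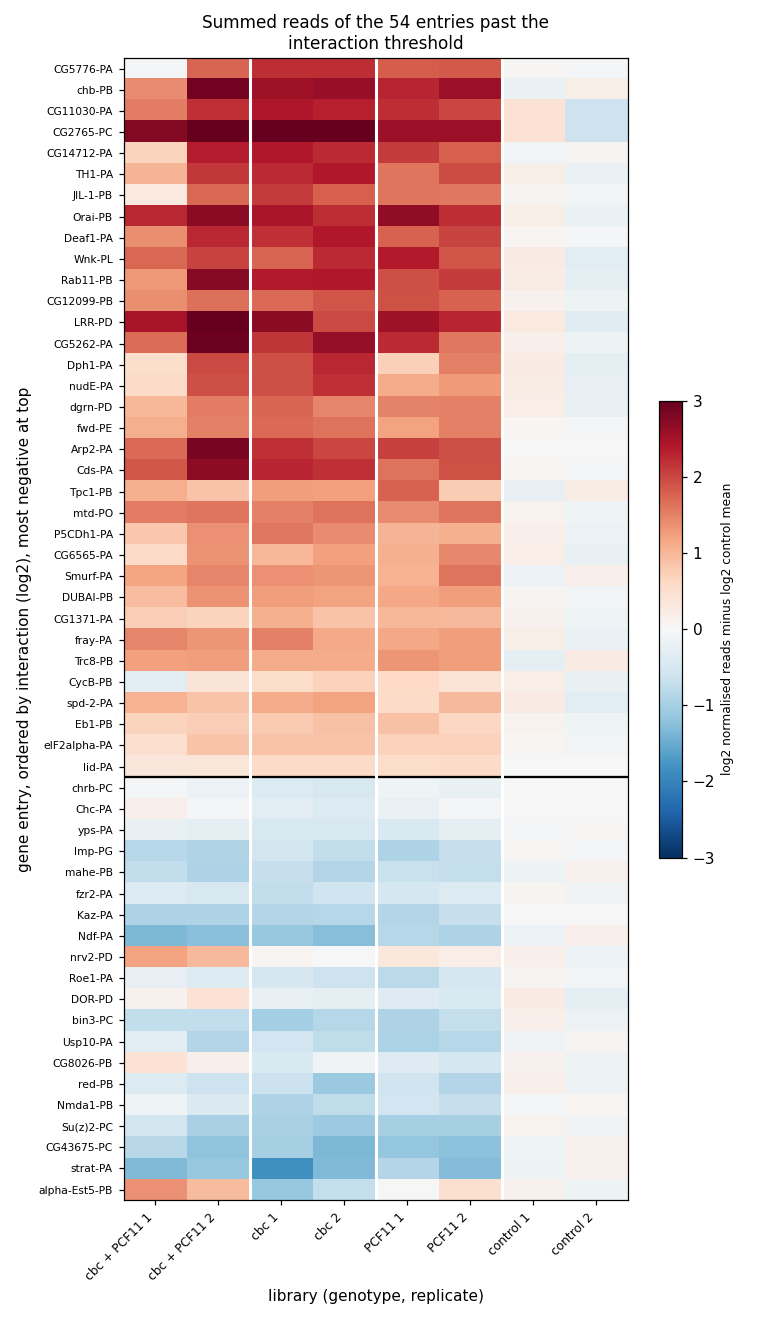
Summed reads of the 54 entries whose interaction passed, 1 row an entry, ordered from the most negative interaction at the top, and 1 column a library with the cbc plus PCF11 libraries at the left and the controls at the right. Colour is the log2 of normalised reads plus 0.5 minus the log2 of the control mean plus 0.5, drawn from -3 to 3 with values beyond at the end colour; above the black line (34 entries, interaction below 0) the overexpression columns are mostly red, and below it (20 entries, above 0) mostly blue.

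The entries that passed are described below by role; these role groups hold called entries only and were formed after the values were seen, so their sizes say nothing about a pathway, and counts over fixed lists are given further on. TH1, Deaf1, JIL-1 and lid act in transcription and chromatin. TH1 is a subunit of the negative elongation factor NELF, which holds RNA polymerase II near the start of genes. It had 306 and 655 normalised reads with cbc plus PCF11, 709 and 806 with cbc alone, 461 and 591 with PCF11 alone and 169.9 and 132 in the control. All 6 overexpression libraries were above the controls, and replicate 1 with both proteins was the lowest of the 6. Its interaction was -2.46 ± 0.39 (log2 ± SE, adjusted p = 0.000782), and the product of the fold changes would have been 2637 reads. Deaf1, a DNA-binding transcription factor, had 1705 and 3112 reads with cbc plus PCF11, 2947 and 3398 with cbc alone, 2205 and 2628 with PCF11 alone and 669 and 621 in the control. The cbc libraries were on average highest, and the interaction was -2.30 ± 0.29 (adjusted p = 0.000112) with a product of 11885 reads. JIL-1, a kinase that phosphorylates histone H3, had 160.1 and 429 reads with cbc plus PCF11, 556 and 455 with cbc alone, 395 and 393 with PCF11 alone and 138 and 123 in the control. Here replicate 1 with both proteins was close to the controls while replicate 2 was at the level of the other genotypes, and the interaction was -2.38 ± 0.46 (adjusted p = 0.00304). The demethylase gene lid had narrow spreads, with 2004 and 2045 reads with cbc plus PCF11, 2344 and 2357 with cbc alone, 2318 and 2351 with PCF11 alone and 1562 and 1600.3 in the control. Its libraries with both proteins lay between the controls and those with either protein alone, without overlap, and its interaction was -0.78 ± 0.16 (adjusted p = 0.00507). All 4 calls held in each of the 8 fits that left out 1 library, with interactions of -3.14 to -2.01 for TH1, -2.84 to -1.93 for Deaf1, -3.29 to -1.83 for JIL-1 and -0.83 to -0.76 for lid. The JIL-1 value nearest 0 came without replicate 1 of cbc plus PCF11.

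The genes chb, Eb1, nudE, Arp2, spd-2 and CycB act in the cytoskeleton, the centrosome or cell division, and all passed below 0. The gene chb encodes the fly CLASP, which stabilises microtubule plus ends and the spindle. It had 188 and 524 reads with cbc plus PCF11, 407 and 426 with cbc alone, 342 and 417 with PCF11 alone and 60.9 and 78.3 in the control, and the product of the fold changes would have been 2270.2. The controls were the lowest 2 libraries by a wide gap, and the interaction was -2.66 ± 0.49 (adjusted p = 0.00261). Eb1, which tracks growing microtubule ends, had 2257 and 2380.0 reads with cbc plus PCF11, 2433 and 2623 with cbc alone, 2622 and 2175 with PCF11 alone and 1534 and 1309.7 in the control. It changed less than chb, and its interaction was -0.88 ± 0.19 (adjusted p = 0.00515). The dynein regulator nudE had 141 and 362 reads with cbc plus PCF11, 360.4 and 430.4 with cbc alone, 206 and 229.6 with PCF11 alone and 109 and 79.1 in the control. Its libraries with both proteins lay on either side of those with PCF11, and its interaction was -1.87 ± 0.48 (adjusted p = 0.0211). Arp2 of the actin-branching complex and the centrosome gene spd-2 had interactions of -1.73 (adjusted p = 0.0262) and -1.01 (adjusted p = 0.0476). CycB, the mitotic cyclin B, was the exception to the common pattern. It had 247 and 407 reads with cbc plus PCF11, 457 and 505 with cbc alone, 478 and 418 with PCF11 alone and 357 and 269.8 in the control. Its libraries with both proteins overlapped the controls, and those with cbc alone or PCF11 alone lay above them. None of its 3 comparisons with the control passed, and its interaction was -1.08 ± 0.33 (adjusted p = 0.0499). The calls for chb and Eb1 held in all 8 fits without 1 library. The calls for nudE and Arp2 held in 3 of 8, CycB in 2 and spd-2 in 1; all 4 were lost without replicate 1 of PCF11 and without replicate 2 of PCF11, among others, with adjusted p up to 0.116 for nudE, 0.133 for Arp2, 0.234 for CycB and 0.177 for spd-2. A window of Arp2 overlaps a transposon insertion annotated on the other strand, and reads there cannot be told apart because strand was not used in counting.

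Rab11 and fwd, which act in membrane traffic, also passed below 0; Rab11 is a small GTPase of recycling endosomes, and fwd a phosphatidylinositol 4-kinase needed for cytokinesis in spermatocytes. Rab11 had 714 and 1921 reads with cbc plus PCF11, 1500.4 and 1532 with cbc alone, 1107 and 1246 with PCF11 alone and 339.8 and 238 in the control. Its libraries with both proteins spanned the whole range of the other overexpression libraries, and the interaction was -2.23 ± 0.43 (adjusted p = 0.00304). For fwd the reads were 413 and 553 with cbc plus PCF11, 637 and 607 with cbc alone, 453 and 557 with PCF11 alone and 203 and 187 in the control, with the groups of both proteins and of PCF11 overlapping. Its interaction was -1.74 ± 0.28 (adjusted p = 0.000863) and its call held in all 8 fits without 1 library. The Rab11 call was lost only without replicate 2 of PCF11, with an adjusted p of 0.0553.

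Orai, Wnk, fray and Smurf act in ion transport or signalling. Orai is the pore of the store-operated calcium channel, and it had 156 and 214 reads with cbc plus PCF11, 179.7 and 152 with cbc alone, 207 and 151 with PCF11 alone and 36.3 and 28.3 in the control. The 3 overexpression genotypes overlapped, and the interaction was -2.32 ± 0.44 (adjusted p = 0.00304). Wnk is a kinase of ion homeostasis and had 327 and 408 reads with cbc plus PCF11, 337 and 467 with cbc alone, 518 and 369 with PCF11 alone and 119 and 79.9 in the control. It showed the same order, all 6 overexpression libraries above the controls, with an interaction of -2.30 ± 0.37 (adjusted p = 0.000782). The gene fray encodes a kinase that Wnk activates, and it had 353 and 319 reads with cbc plus PCF11, 367 and 280.3 with cbc alone, 286 and 307 with PCF11 alone and 144 and 112 in the control. Its interaction was -1.17 (adjusted p = 0.0343), and its windows lie inside another gene, CG7694, on the same strand. Smurf, a ubiquitin ligase that restrains BMP signalling, had an interaction of -1.36 (adjusted p = 0.0219). Orai and Wnk held in all 8 fits without 1 library. Smurf was lost without replicate 1 of cbc plus PCF11, either cbc library or replicate 2 of PCF11 (adjusted p up to 0.12), and fray held only without replicate 2 of cbc and without replicate 1 of the control (up to 0.161).

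DUBAI, dgrn and Trc8 are ubiquitin enzymes, like Smurf. DUBAI, a deubiquitinase, had 2090.0 and 2770.4 reads with cbc plus PCF11, 2635 and 2553 with cbc alone, 2455 and 2616 with PCF11 alone and 1160.4 and 1033 in the control, and an interaction of -1.30 ± 0.20 (adjusted p = 0.000548). For the SUMO-targeted ubiquitin ligase dgrn the reads were 202 and 294 with cbc plus PCF11, 341 and 281 with cbc alone, 285 and 289 with PCF11 alone and 116 and 86.6 in the control, and the interaction was -1.83 ± 0.36 (adjusted p = 0.00368). In both genes the 3 overexpression genotypes lay close together at about the same distance from the control. Trc8, a ubiquitin ligase of the endoplasmic reticulum, had an interaction of -1.15 (adjusted p = 0.0101) and a window that overlaps FipoQ on the other strand. DUBAI and dgrn held in all 8 fits without 1 library, and Trc8 was lost without either PCF11 library (adjusted p up to 0.0721).

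The genes eIF2alpha, mtd, P5CDh1, Cds, Tpc1 and Dph1 act in translation, metabolism or the stress response. The translation initiation factor gene eIF2alpha had the most reads of the 34, with 4339 and 5531 with cbc plus PCF11, 5538 and 5494 with cbc alone, 4875 and 4889 with PCF11 alone and 3189 and 2897 in the control. Its interaction was -0.84 ± 0.16 (adjusted p = 0.00304), and its distal window overlaps rngo on the other strand. The gene mtd, known for protection against oxidative stress, had 1348 and 1419 reads with cbc plus PCF11, 1327 and 1439 with cbc alone, 1249 and 1414 with PCF11 alone and 501 and 428 in the control. Its 6 overexpression libraries lay within a narrow band, and its interaction was -1.52 ± 0.21 (adjusted p = 0.000279). P5CDh1, an enzyme of proline breakdown, had 448 and 665 reads with cbc plus PCF11, 770.1 and 679.6 with cbc alone, 517 and 533 with PCF11 alone and 284 and 227 in the control, and an interaction of -1.42 ± 0.29 (adjusted p = 0.00454). The other members were Cds, which makes CDP-diacylglycerol (-1.71, adjusted p = 0.0211), Tpc1, a mitochondrial thiamine pyrophosphate carrier (-1.60, adjusted p = 0.00968), and Dph1, an enzyme of diphthamide synthesis (-1.87, adjusted p = 0.0484). The calls for eIF2alpha, mtd and P5CDh1 held in all 8 fits without 1 library. The Tpc1 call was lost without replicate 1 of PCF11 (adjusted p = 0.102), Cds in 4 fits (without replicate 1 of cbc plus PCF11, replicate 1 of cbc or either PCF11 library, up to 0.11), and Dph1 held only without replicate 2 of cbc plus PCF11 and without replicate 1 of the control (up to 0.272).

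The remaining 9 of the 34 are named here without a role. CG12099 had the lowest adjusted p of the fit, with 1396 and 1669 reads with cbc plus PCF11, 1723 and 1933 with cbc alone, 1990.4 and 1792 with PCF11 alone and 576 and 477 in the control. All overexpression libraries lay far above the controls, and both with cbc plus PCF11 lay below every library with cbc or PCF11 alone. The product of the fold changes would have been 6566 reads. Its interaction was -2.10 ± 0.21 (95% interval -2.55 to -1.65, adjusted p = 1.37e-05). CG5776 had the most negative value, -2.97 ± 0.73 (adjusted p = 0.0167), at low counts of 22.2 and 78.1 reads with cbc plus PCF11, 109 and 108 with cbc alone, 82.7 and 83.4 with PCF11 alone and 23.5 and 22.5 in the control. Replicate 1 with both proteins was at the control level, and cbc plus PCF11 against control did not pass for this gene. CG11030 had 361 and 575 reads with cbc plus PCF11, 676 and 634 with cbc alone, 588 and 506 with PCF11 alone and 169 and 81.6 in the control, and an interaction of -2.63 ± 0.39 (adjusted p = 0.000548). CG2765 had the largest rise with both proteins, with 417 and 799 reads against 511 and 671 with cbc alone, 369 and 368 with PCF11 alone and 83.3 and 40.0 in the control. Its log2 change of 3.32 with both proteins was near that of 3.28 with cbc, and the interaction was -2.56 ± 0.44 (adjusted p = 0.0015). CG14712 had an interaction of -2.54 (adjusted p = 0.0054), LRR -2.07 (0.00507), CG5262 -1.93 (0.0499), CG6565 -1.38 (0.0327) and CG1371 -1.24 (0.0417). CG12099, CG11030 and CG2765 held in all 8 fits without 1 library. CG5776 held in 5 and was lost without replicate 1 of cbc, and CG5776 and CG14712 were lost without either PCF11 library. LRR was lost without replicate 1 of PCF11 alone (0.0701), while CG6565 held in 2 of 8 fits and CG5262 and CG1371 in 1, each lost without replicate 1 of cbc plus PCF11 among others.

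**Figure D2:**
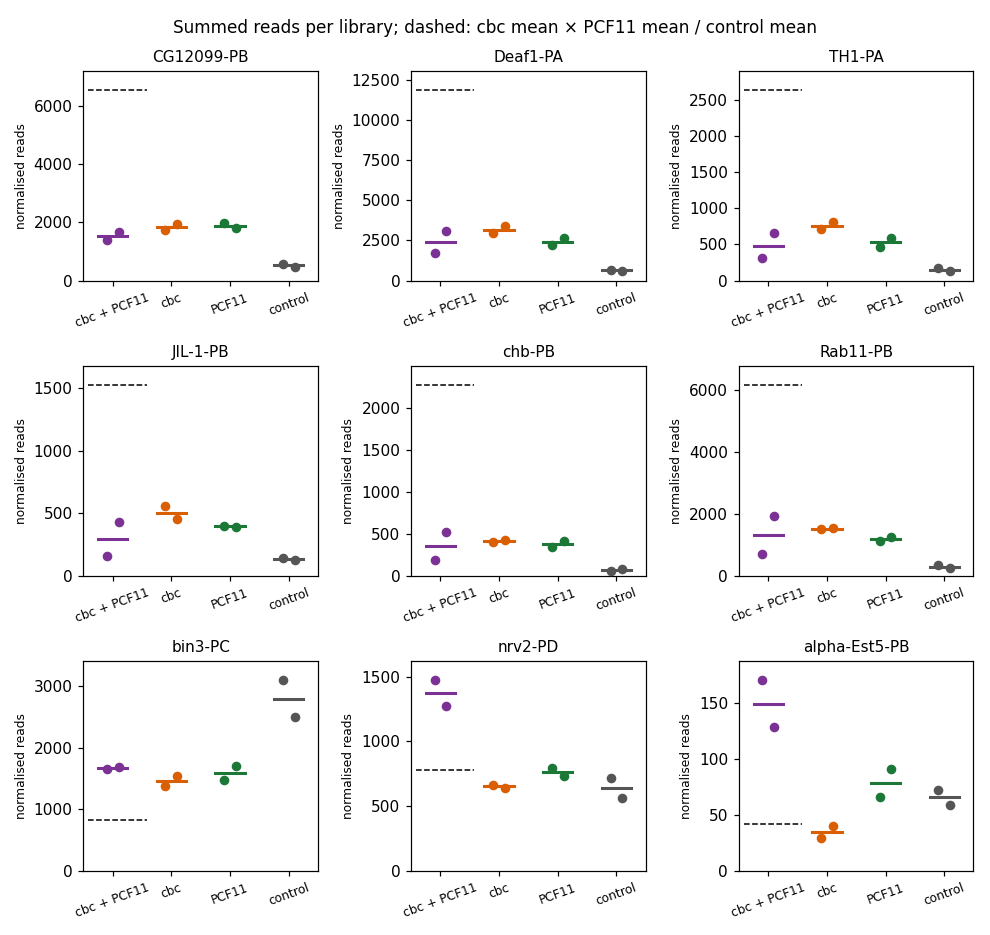
Normalised summed reads of 9 entries in every library, with cbc plus PCF11 at the left and the control at the right; points are libraries, bars are means of 2 libraries, and the dashed line is the cbc mean times the PCF11 mean over the control mean. In the first 6 panels the points with both proteins lie below the dashed line. The lower of the 2 points with both proteins is there below every point of either protein alone, and in CG12099 both are. In bin3, nrv2 and alpha-Est5 the points with both proteins lie above the dashed line.

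The 20 entries above 0 mostly fell against the control, with smaller values, but were no full mirror image of the 34. Cbc plus PCF11 against control passed as higher in 32 of the 34, and as lower in 10 of the 20. The median log2 change of the 20 against the control was -0.48 with cbc plus PCF11, -0.72 with cbc and -0.67 with PCF11. Their interactions ran from 0.50 to 1.84 with a median of 0.93. The median entry had 932 normalised reads with cbc plus PCF11, 624 with cbc, 746 with PCF11 and 1093 in the control. The mean with both proteins was 1.41 to 3.59 times what the product of the fold changes gives. A positive sign was likewise not particular to the called entries. In 36 entries both cbc and PCF11 passed as lower than the control. All 36 had an interaction above 0, with a median of 0.67, and it passed in 14. The control, cbc and PCF11 libraries that picked the 36 also enter the interaction, so its sign was partly set by that choice. In 15 of the 20 all 6 overexpression libraries lay below both controls, which was so for 21.2% of all entries. This contrast too was partly set by the choice of the 20 on the same libraries.

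Of these, bin3, Su(z)2 and Ndf act in chromatin and transcription. The gene bin3 encodes a methyltransferase that caps the 7SK RNA, a regulator of transcription elongation. It had 1661 and 1687 reads with cbc plus PCF11, 1382 and 1544 with cbc alone, 1476 and 1696 with PCF11 alone and 3096 and 2490.3 in the control, and an interaction of 1.01 ± 0.20 (adjusted p = 0.0031). All overexpression libraries were far below the controls, and those with both proteins overlapped those with PCF11. Su(z)2, a relative of the Polycomb group gene Psc, had 289.7 and 214 reads with cbc plus PCF11, 214 and 199 with cbc alone, 213 and 211 with PCF11 alone and 455 and 392 in the control. The overexpression genotypes again sat together below the control, with an interaction of 1.28 ± 0.32 (adjusted p = 0.0181). Ndf, a nucleosome-destabilising factor, had an interaction of 0.79 (adjusted p = 0.0398). The bin3 call was the only one of the 20 that held in all 8 fits without 1 library. Su(z)2 held in 3 of 8, lost without replicate 1 of cbc plus PCF11 and without any cbc or PCF11 library (adjusted p up to 0.112), and Ndf held only without replicate 1 of the control (up to 0.173).

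RNA-binding proteins gave yps, a Y-box protein of germline RNA particles, Imp, which binds mRNAs, and mahe, a DEAD-box helicase. The reads of yps were 5197 and 5086 with cbc plus PCF11, 4414 and 4417 with cbc alone, 4486 and 5084 with PCF11 alone and 5994 and 6233 in the control, and its interaction was 0.57 ± 0.14 (adjusted p = 0.0131). Both controls were the highest libraries, and those with both proteins came next. Imp had 2018 and 1966 reads with cbc plus PCF11, 2484 and 2182 with cbc alone, 1917 and 2269.7 with PCF11 alone and 3722 and 3601 in the control, and an interaction of 0.58 ± 0.17 (adjusted p = 0.0422). Its libraries with both proteins were within the range of PCF11, and its distal window overlaps a long noncoding RNA gene on the same strand. For mahe the interaction was 0.65 (adjusted p = 0.021). The yps call held in 5 of 8 fits without 1 library, lost without either cbc library or replicate 1 of PCF11 (adjusted p up to 0.091). Mahe held in 3, lost without replicate 1 of cbc plus PCF11, replicate 2 of cbc, either PCF11 library or replicate 2 of the control (0.143), and Imp held only without replicate 2 of the control (0.221).

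Other members above 0 act in traffic, the cell cycle, growth control and mitochondria. The gene strat, which helps Rab proteins in secretion, had 166 and 189 reads with cbc plus PCF11, 116 and 166 with cbc alone, 226 and 168 with PCF11 alone and 374 and 456 in the control, and an interaction of 1.41 ± 0.36 (adjusted p = 0.0211). Chc, the clathrin heavy chain, had 3336 and 2939 reads with cbc plus PCF11, 2362 and 2271 with cbc alone, 2615 and 2878 with PCF11 alone and 2977 and 3019.8 in the control. Its control and both-protein libraries overlapped, and its interaction was 0.56 ± 0.16 (adjusted p = 0.0359). Roe1, a GrpE protein of mitochondrial import, had 2409 and 2159 reads with cbc plus PCF11, 1996 and 1843 with cbc alone, 1633 and 1996 with PCF11 alone and 2998 and 2705 in the control, and an interaction of 0.90 ± 0.19 (adjusted p = 0.00454). Here the libraries with both proteins lay between the control and the other genotypes. The anaphase-promoting complex activator fzr2 (0.69, adjusted p = 0.0343), the deubiquitinase Usp10 (1.01, 0.0264) and chrb, which restrains TOR signalling (0.50, 0.0386), also passed. Values for DOR were 1208 and 1484 reads with cbc plus PCF11, 946 and 914 with cbc alone, 841 and 806 with PCF11 alone and 1311 and 899 in the control. The controls of DOR spanned most of that range, no comparison of it with the control passed, and its interaction was 0.95 ± 0.25 (adjusted p = 0.0219). Nmda1, CG43675, red, CG8026 and Kaz, named without a role, had interactions of 1.20, 1.34, 1.06, 1.02 and 0.72 (adjusted p = 0.00621, 0.00454, 0.0417, 0.0417 and 0.0499). Windows of fzr2, CG43675, CG8026 and Kaz overlap another gene on the same strand, and those of Nmda1 on the other. Of these 12, Roe1 was lost only without replicate 1 of PCF11 (adjusted p = 0.0503), and Nmda1 and CG43675 only without replicate 2 of PCF11 (0.0565 and 0.0553). The other 9 held in 0 to 3 of 8 fits without 1 library and were all lost without either PCF11 library, with adjusted p up to 0.193 (red).

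Since most members had levels with both proteins near those with 1 protein, the 2 genotypes were compared directly, with no control in the comparison. Cbc plus PCF11 against cbc passed in 2 of 523 entries (0.382%), alpha-Est5 and nrv2, both higher with cbc plus PCF11. The count was 10 without replicate 2 of cbc plus PCF11, 4 without either control library, 1 without either PCF11 library and 0 without replicate 1 of cbc plus PCF11 or either cbc library. With all libraries 70 entries (13.4%) had an unadjusted p under 0.05, and DESeq2 called 4 (0.765%). Cbc plus PCF11 against PCF11 passed in 1 entry (0.191%), nrv2, also higher. That count was 2 without either control library and 0 without any other library. With all libraries 30 entries (5.74%) had an unadjusted p under 0.05, and DESeq2 called 2 (0.382%). Among the 34 entries below 0, none passed against cbc or against PCF11. Their median log2 difference was -0.21 against cbc and -0.04 against PCF11. The 95% interval of the difference held 0 in 30 of 34 against cbc and in 33 of 34 against PCF11. Its bounds reached -2.17 and 0.99 against cbc and -1.79 and 1.35 against PCF11, so a difference of that size is not shown to be absent. An interval leaves out 0 where the unadjusted p is under 0.05, which held for 13.4% of all entries against cbc and 5.74% against PCF11. The 34 were near these shares. Without replicate 1 of cbc plus PCF11 the medians were -0.02 and 0.13, and without replicate 2 they were -0.47 and -0.30. Among the 20 entries above 0 the medians were 0.27 against cbc and 0.19 against PCF11. In these 20, 12 and 14 of the intervals held 0, a smaller share than over all entries. The libraries with both proteins also enter the interaction that picked the 20. TH1, JIL-1, CG5776 and CycB were the negative members whose interval against cbc left out 0, with differences of -0.66 (-1.23 to -0.09), -0.78 (-1.45 to -0.12), -1.12 (-2.17 to -0.06) and -0.56 (-1.06 to -0.06), and adjusted p of 0.294, 0.285, 0.334 and 0.298.

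**Figure D3:**
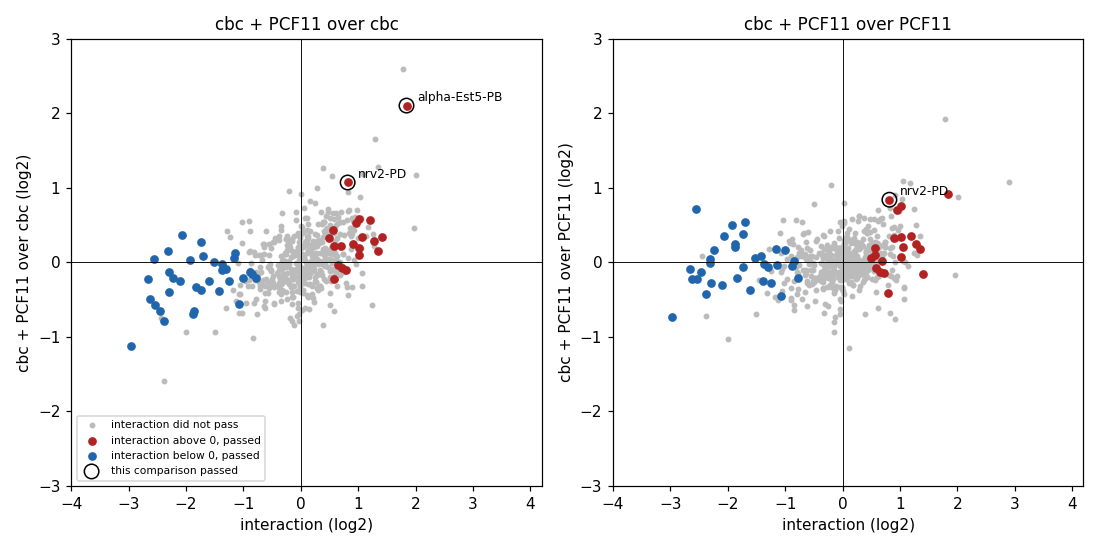
Log2 difference of cbc plus PCF11 over cbc (left) and over PCF11 (right) on the vertical axis against the interaction (log2) on the horizontal axis, 1 point an entry, with 1 of 523 entries outside the axes. Blue points (34 entries below 0) lie around the horizontal line at 0, and the ringed points, alpha-Est5 and nrv2 at the left and nrv2 at the right, are the entries that passed the comparison on the vertical axis; both axes use the libraries with both proteins.

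The gene nrv2 encodes a beta subunit of the sodium and potassium pump, and it was higher with both proteins than in any other genotype. It had 1474 and 1271 reads with cbc plus PCF11, 665 and 641 with cbc alone, 795 and 737 with PCF11 alone and 720.2 and 565 in the control. The groups with cbc, with PCF11 and without a transgene lay in a common range, and neither cbc nor PCF11 against control passed. Its difference was 1.07 ± 0.16 over cbc (log2 ± SE, adjusted p = 0.00337) and 0.84 ± 0.16 over PCF11 (adjusted p = 0.0488), and its interaction was 0.82 ± 0.23 (adjusted p = 0.0352). Its 2 windows lie in the 3' UTR on 2L, minus strand, at 6790371 to 6790401 and 6789816 to 6789846, and most reads were distal. The esterase gene alpha-Est5 had 170.3 and 128 reads with cbc plus PCF11, 29.5 and 40.0 with cbc alone, 66.4 and 91.4 with PCF11 alone and 72.7 and 59.1 in the control. Both libraries with both proteins were the highest and the cbc libraries the lowest, with PCF11 and control overlapping. Its difference over cbc was 2.10 ± 0.40 (adjusted p = 0.017), over PCF11 0.92 (95% interval 0.13 to 1.71, adjusted p = 0.675), and its interaction was 1.84 ± 0.55 (adjusted p = 0.0417). These calls depended on single libraries. Against cbc, nrv2 was lost without replicate 1 of cbc plus PCF11 or either cbc library (adjusted p up to 0.104), and alpha-Est5 without those 3 or either PCF11 library (up to 0.315). Against PCF11, nrv2 held only without either control library (up to 0.804). The interactions of nrv2 and alpha-Est5 each held only without replicate 2 of cbc plus PCF11 and without replicate 2 of the control, with adjusted p up to 0.166 and 0.198.

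Reads at the proximal and the distal sites were then tested apart in a joint fit with the same library factors. The interaction passed for proximal reads in 40 of 516 entries (7.75%), 5 above 0 (0.969%) and 35 below (6.78%), and for distal reads in 49 of 523 (9.37%), 19 above 0 (3.63%) and 30 below (5.74%). Of the 34 entries with a negative interaction on summed reads, 8 passed at the proximal site alone, 19 at the distal sites alone, 5 at both and 2 at neither. Of the 20 above 0, 3 passed at the proximal site alone, 11 at the distal sites alone and 6 at neither. Passing at either side and not at the other is no test of a difference between them. That test, the interaction on proximal usage, passed in 9 of 516 entries (1.74%), 2 above 0 (0.388%) and 7 below (1.36%).

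TH1, Deaf1 and CG12099 passed for proximal reads and not for distal reads. CG12099 (windows on 3L, minus strand, at 1555482 to 1555512 and 1555360 to 1555390, both in the 3' UTR) had 1056 and 1311 proximal reads with cbc plus PCF11, 1364 and 1597 with cbc alone, 1632 and 1470.1 with PCF11 alone and 223 and 132 in the control. Its distal reads were 339.7 and 358 with cbc plus PCF11, 358 and 336 with cbc alone, 358 and 322 with PCF11 alone and 353 and 345 in the control, a narrow range over all 8 libraries. The interaction was -3.46 ± 0.29 for proximal reads (adjusted p = 1.09e-08) and 0.04 ± 0.31 for distal reads (adjusted p = 0.9753). TH1 (windows on X, minus strand, at 16389177 to 16389207 and 16388820 to 16388850, both in the 3' UTR) had 204.6 and 549 proximal reads with cbc plus PCF11, 553 and 661 with cbc alone, 344 and 469 with PCF11 alone and 56.6 and 29.97 in the control. Its distal reads ran 102 and 105 with cbc plus PCF11, 156 and 146 with cbc alone, 118 and 121 with PCF11 alone and 113 and 102 in the control. Its interaction was -3.94 ± 0.49 for proximal reads (adjusted p = 4.24e-06) and -0.69 for distal reads (adjusted p = 0.415). Deaf1 (windows on 3L, plus strand, at 19829425 to 19829455 and 19829926 to 19829956) had 1274 and 2741 proximal reads with cbc plus PCF11, 2554 and 3001 with cbc alone, 1809.7 and 2109.7 with PCF11 alone and 388 and 278 in the control, and an interaction of -3.03 ± 0.33 (adjusted p = 9.92e-07). Its distal reads came to 431 and 370.2 with cbc plus PCF11, 393 and 397 with cbc alone, 395 and 519 with PCF11 alone and 281 and 343 in the control, where the controls were lowest, and the distal interaction was -0.53 ± 0.31 (adjusted p = 0.375). The usage interaction, which tests the difference between the sites, did not pass in TH1 or Deaf1 (adjusted p = 0.0684 for each gene), and in CG12099 it did (-3.54 ± 0.41, adjusted p = 0.00723).

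JIL-1 and CG11030 passed for distal reads, and JIL-1 passed for proximal reads as well. The usage interaction, which tests the difference between the sites, did not pass in either gene. JIL-1 (windows on 3L, minus strand, at 11080244 to 11080274 and 11079473 to 11079503, both in the 3' UTR) had 85.2 and 367 distal reads with cbc plus PCF11, 344 and 316 with cbc alone, 204.6 and 198 with PCF11 alone and 20.3 and 20.8 in the control. The controls had the fewest distal reads, and replicate 1 with both proteins was the nearest to them. Its proximal reads were 75.0 and 61.7 with cbc plus PCF11, 212 and 139 with cbc alone, 190.4 and 195 with PCF11 alone and 118 and 102 in the control, so that the libraries with both proteins were the lowest. Its interaction was -3.83 ± 0.61 for distal reads (adjusted p = 0.000126) and -2.17 ± 0.44 for proximal reads (adjusted p = 0.0019). CG11030 (windows on 2L, plus strand, at 5759868 to 5759898 and 5760022 to 5760052, both in the 3' UTR) had 351 and 536 distal reads with cbc plus PCF11, 654 and 602 with cbc alone, 568 and 476 with PCF11 alone and 113 and 65.8 in the control. The distal interaction was -3.06 ± 0.36 (adjusted p = 2.46e-06). CG5262 followed with -3.52 ± 0.74 (adjusted p = 0.00218), at control values of 7.48 and 6.66 distal reads, and CG5776 with -2.93 ± 0.68 (adjusted p = 0.00546). Above 0 the largest distal interactions were those of DOR (1.68), strat (1.43), CG43675 (1.35) and CG31855 (1.30), with adjusted p of 0.00214, 0.0251, 0.00317 and 0.0348. Of these 8 calls, JIL-1, CG11030, CG5262, DOR and CG43675 held in all 8 fits without 1 library.

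**Figure D4:**
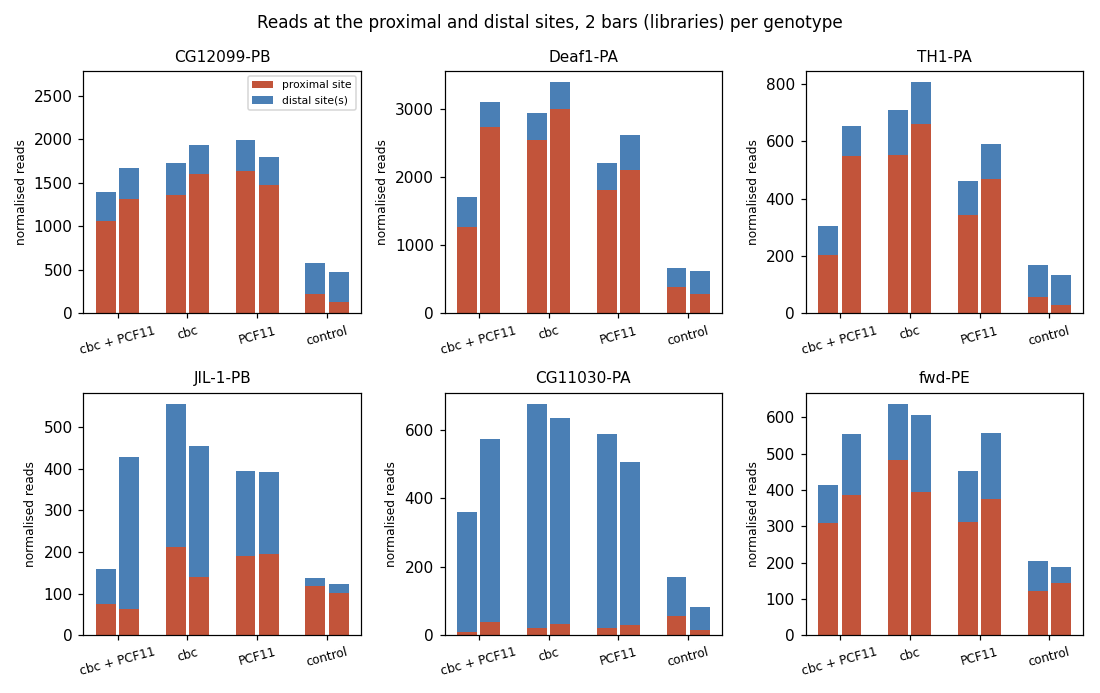
Normalised reads at the proximal site (red) with those at the distal sites stacked on top (blue) in 6 entries, 2 bars a genotype for its 2 libraries, with cbc plus PCF11 at the left and the control at the right. In CG12099, Deaf1 and TH1 the control lacks most of the proximal reads of the other genotypes; in JIL-1 and CG11030 it lacks most of the distal reads, and in fwd it is lower at both.

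Genes with no call on summed reads had large interactions at the proximal site. Rop, a Sec1 family protein of vesicle fusion, had 64.8 and 156 proximal reads with cbc plus PCF11, 138 and 158 with cbc alone, 119 and 137 with PCF11 alone and 4.27 and 7.49 in the control, the last from 4 and 9 raw reads. Its distal reads were 272 and 233 with cbc plus PCF11, 263 and 251 with cbc alone, 198 and 224 with PCF11 alone and 306 and 289.7 in the control. The proximal interaction of Rop was -4.80 ± 0.64 (adjusted p = 1.06e-05) while that on summed reads was -0.32 (adjusted p = 0.5). Sec71, an exchange factor for Arf GTPases, had 24.1 and 93.5 proximal reads with cbc plus PCF11, 72.3 and 128 with cbc alone, 63.1 and 52.5 with PCF11 alone and 2.14 and 3.33 in the control, the last from 2 and 4 raw reads. Its proximal interaction was -5.08 ± 0.89 (adjusted p = 0.000461), and CG1486 had -4.18 ± 0.91 (adjusted p = 0.00317) with 4 and 5 raw proximal reads in the control. At such counts the control level, and with it the size of the interaction, is loosely set. Above 0 the largest proximal interactions were those of alpha-Est5 (2.80), oys (1.61), CG31523 (1.20) and bin3 (1.06), with adjusted p of 0.0326, 0.0359, 0.0136 and 0.0019. Of the 40 proximal calls 19 held in all 8 fits without 1 library, and of the 49 distal calls 18; Rop, Sec71, TH1 and bin3 were among the proximal ones, and alpha-Est5 and oys held in 2 fits.

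Usage is the share of an entry's reads at the proximal site. In CG12099 the proximal share was 75.7% and 78.6% with cbc plus PCF11, 79.2% and 82.6% with cbc alone, 82.0% and 82.0% with PCF11 alone and 38.8% and 27.7% in the control. Rop had proximal shares of 19.2% and 40.1% with cbc plus PCF11, 34.4% and 38.6% with cbc alone, 37.5% and 37.97% with PCF11 alone and 1.38% and 2.52% in the control, and a usage interaction of -5.40 ± 0.86 in log2 odds (adjusted p = 0.017). In sbb, which encodes a zinc finger protein, the shares were 16.5% and 21.1% with cbc plus PCF11, 24.3% and 32.5% with cbc alone, 26.2% and 20.9% with PCF11 alone and 6.54% and 4.46% in the control. Its usage interaction was -3.20 ± 0.48 (adjusted p = 0.017). CG31523 went the other way, toward the distal site with overexpression, with 29.2% and 21.0% with cbc plus PCF11, 19.1% and 18.7% with cbc alone, 25.9% and 27.4% with PCF11 alone and 65.7% and 64.0% in the control. That gave a usage interaction of 2.85 ± 0.38 (adjusted p = 0.0116), and Idh3b, a subunit of isocitrate dehydrogenase, had 1.85 ± 0.37 (adjusted p = 0.0465). The remaining usage interactions that passed were CG31855 (-3.02), CG14207 (-2.71), DUBAI (-2.02) and Rab11 (-1.89), with adjusted p of 0.0465, 0.017, 0.0465 and 0.0465. Proximal usage with both proteins against cbc passed in 0 of 516 entries by edgeR (32, or 6.2%, at an unadjusted p under 0.05) and against PCF11 in 0 (18, or 3.49%, at an unadjusted p under 0.05). None of the 9 usage interactions held in all 8 fits without 1 library; 0 passed without replicate 1 of cbc, replicate 2 of cbc or replicate 1 of PCF11, 2 without replicate 1 of cbc plus PCF11, 3 without replicate 2 of PCF11 and 4 without replicate 1 of the control.

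Gene lists by function gave few calls each, to be read against 20 higher and 34 lower of 523 and a median of 0.03. Of 17 measured entries of chromatin and transcription 3 were lower (Deaf1, JIL-1 and lid), with a list median of 0.11. Of 13 entries of vesicles and cytoskeleton 3 were lower (Rab11, chb and fwd) and 1 higher (Chc), with a median of -0.37. Of 11 entries of ubiquitin and autophagy 3 were lower (DUBAI, Smurf and Trc8) and 1 higher (Usp10), with a median of 0.19. Of 10 RNA-binding and translation entries 2 were higher (yps and Imp) and 0 lower, with a median of 0.50. Cell cycle had 1 higher (fzr2) and 1 lower (CycB) of 10, kinases and signalling 1 lower (Smurf) of 13, and mitochondria and metabolism 1 lower (Cds) of 7. The list named cleavage and polyadenylation had 3 measured entries of 28 genes, and none of the 3 is a cleavage or polyadenylation factor. TH1 was lower, and CycT, a cyclin of the elongation kinase P-TEFb, and IntS6, an Integrator subunit, did not pass. None passed among 3 meiotic arrest and spermatocyte entries or 3 of protein folding and stress, and no splicing gene was measured.

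Genome position and site spacing of the members are given as counts and medians, with no test. Of the 34 below 0, 12 were on 3L, 8 on 2R, 7 on 3R, 4 on 2L and 3 on X, against 116, 97, 126, 97 and 79 of all 523. The median distance between the most proximal and most distal window was 360.5 bases in the 34, 392 in the 20 above 0 and 438 in all entries. A window overlapped another gene in 6 of the 34, 6 of the 20 and 155 of all 523.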

How the data were processed

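Libraries were QuantSeq forward 3' end libraries of testis RNA, per the labels. The deposited values are counts of reads, not normalised, in windows at each poly(A) site. The run had a block setting of 30, and not every window is 30 bp wide. The authors made the counts with PolyA-miner, per the deposited run logs, with strand setting 0, no molecular identifiers, and a list of 1098 sites. The name of that list refers to bam against spermatocytes. Shares of entries given here therefore refer to genes on that list, not to all genes expressed in the testis. Alignment used Bowtie and SAMtools against dm6/BDGP6, per the submitters' processing notes, for which no versions were recorded there.

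The 3 tables were joined on the site (1082 windows); control counts shared by the tables differed in 0 windows. Counts were summed per entry, and the 523 entries that averaged at least 10 reads a library went into a quasi-likelihood fit (edgeR 4.0.16, R 4.3.3; TMM factors of the summed reads, all 8 libraries and 4 groups in 1 fit). Benjamini-Hochberg adjustment ran over all entries, with a threshold of 0.05. Standard errors were derived from each coefficient and its F statistic and are approximate; 95% intervals rest on them. Proximal means the most upstream window of an entry and distal all others; usage was fitted with a term per library. Reads without molecular identifiers are not independent molecules. Duplicates of each group differed by more than sampling noise (chi-square per degree of freedom 6.26 to 15.7). Of 17807 genes in the authors' list, 17017 matched the reference annotation by symbol, and 99.6% of these had identical intervals. Coordinates are as the deposited tables give them, on BDGP6.

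Named genes were the 10 largest interactions in each direction among those that passed, list members that passed, and the 4 largest in each direction for proximal reads, distal reads and usage; other entries that passed were named after their values were seen, and the role groups were formed for the text. The entries and lists were chosen with earlier results of these data known. Alternatives were DESeq2 1.42.0, a replicate block, other minimums and scaling factors, no overlapping windows, sums per symbol, the most distal site against all others, and each library left out.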

Additional observations from a re-analysis of the deposited data

Results flagged for a closer look

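The difference between the effect of cbc with and without PCF11, tested as the interaction on summed reads, passed in 54 entries, 34 below and 20 above 0; CG12099 was the clearest below 0 and bin3 above it by adjusted p among entries that held whichever library was left out. The same test on proximal usage passed in 9 entries: CG12099, Rop, sbb, CG31855, CG14207, DUBAI and Rab11 below 0, and CG31523 and Idh3b above it. Both counts come from edgeR with adjustment over all entries tested, and both use the control libraries, so they contain any effect that all 3 overexpression genotypes share against the control.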

How the results depend on the processing

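No entry that passed on summed reads changed sign under the alternatives fitted to the same entries. DESeq2 called 66 entries (all 54 among them) and other minimums and scaling factors 47 to 56, against 54. By direction these minimums and scaling factors gave 12 to 22 above 0, against 20, and 34 or 35 below 0, against 34; the lowest were 12 with no minimum and 13 with no factor, and DESeq2 gave 28 above and 38 below 0. For proximal usage DESeq2 called 33 and the replicate block 5, against 9. Fits without each library gave 22 to 71 calls for the interaction on summed reads, 21 to 50 for proximal reads, 26 to 62 for distal reads and 0 to 12 for proximal usage. They gave 68 to 144 for cbc against control, 46 to 121 for PCF11 against control and 95 to 163 for cbc plus PCF11 against control. The counts on summed reads were 30 without replicate 1 of cbc plus PCF11, 29 and 33 without replicates 1 and 2 of cbc, and 22 and 23 without replicates 1 and 2 of PCF11. The lowest counts came without replicate 1 of PCF11 for proximal (21) and distal reads (26) and for PCF11 against control (46), without replicate 2 of cbc for cbc against control (68) and without replicate 2 of cbc plus PCF11 for cbc plus PCF11 against control (95). Calls above 0 on summed reads ran from 3 (without either PCF11 library) to 25 (without replicate 2 of the control). Distal calls were 29 without replicate 1 of cbc plus PCF11 and 30 without replicate 2 of PCF11. Of the 54 entries 18 passed in all 8 of these fits and 1 in none. A fit without 1 library leaves a lone library assumed to vary like the others. The replicate numbers did not pair the libraries (correlations of replicate differences between groups -0.11 to 0.13); with the replicate block 37 entries passed, all among the 54, with 9 above 0 against 20 and 28 below 0 against 34. Proximal calls above 0 were 3 with the block, against 5, cbc plus PCF11 against cbc gave 1 call, against 2, and cbc plus PCF11 against PCF11 gave 0, against 1, so the nrv2 call over PCF11 was lost. The block moved the other counts on reads by less than 1.5 times. Leaving out windows that overlap another gene left 38 calls, with fewer entries tested.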
